A study of Mus musculus with 6 samples.

Results

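The colony-stimulating factors are secreted proteins that keep myeloid cells alive and drive their growth through surface receptors. The group described here holds the ligands M-CSF (Csf1), GM-CSF (Csf2), G-CSF (Csf3), IL-34 (Il34) and stem cell factor (Kitl), and the receptors Csf1r, Csf2ra, Csf2rb, Csf2rb2 and Csf3r. Its 10 genes were chosen by name from the 17564 genes of the deposited table, and all 10 had a row. They were measured by bulk RNA sequencing of whole back skin from 8-week-old wild-type C57BL/6 mice. SspA/HDM skin (n = 3) was shaved, depilated and given 3 µg of SspA, the V8 protease of Staphylococcus aureus, together with 10 µg of house dust mite extract on the surface. The application was repeated after 3 days, and the skin was collected 7 days after the first. Untreated skin (n = 3) was shaved and depilated only, and its collection day is not given in the labels. The design sets skin exposed to both agents beside skin that received neither.

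M-CSF and IL-34 are both ligands of CSF1R, the receptor of monocytes, macrophages and Langerhans cells. Keratinocytes are the main source of IL-34 in mouse epidermis, where the Langerhans cells depend on it. G-CSF acts through CSF3R on neutrophils, and GM-CSF acts through CSF2RA paired with a shared beta chain. Stem cell factor acts through KIT on mast cells and melanocytes.

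The values are scaled reads, in which each library's read counts are multiplied by 1 factor so that all libraries have nearly the same total. The reads behind them ranged from 5606959 to 7545567 in SspA/HDM libraries and from 4928245 to 5770072 in untreated libraries. SspA/HDM replicate 3 was the deepest library and stood apart from the other treated libraries. Its 16 neutrophil markers summed to 1232 scaled reads, against 4032 and 2927 in SspA/HDM replicates 1 and 2. Its 9 hair follicle sheath markers summed to 4400 scaled reads, against 2001 and 784 in those replicates. Whether each library is its own mouse is not stated in the labels, and every p-value therefore rests on the spread among these 6 libraries, which may be technical. The skin label held, since the epidermal keratinocyte genes Krt5, Krt14, Krt1 and Krt10 each had at least 1154 scaled reads in all 6 libraries.

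SspA/HDM skin carried far more RNA of the G-CSF receptor Csf3r, and more of the ligand Kitl, while the ligand Il34 was lower. These were the 3 members that passed the test of 8 that had enough reads for one (limma, adjusted p under 0.05). Of all 15534 genes tested, 9.26% were called higher and 7.23% lower. Csf3r, Kitl and Csf1r were higher in every SspA/HDM library than in any untreated one, as were 21.7% of all tested genes, and Il34 was lower in every one, as were 15.6%. That made 4 of 8 members without overlap, where all tested genes had 37.3%. The RNA of G-CSF itself (Csf3) was too sparse for that test but was also found almost wholly in SspA/HDM libraries. The remaining members, Csf1, Csf2, Csf1r, Csf2ra, Csf2rb and Csf2rb2, did not pass over the 6 libraries or were too sparse.

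**Figure D1:**
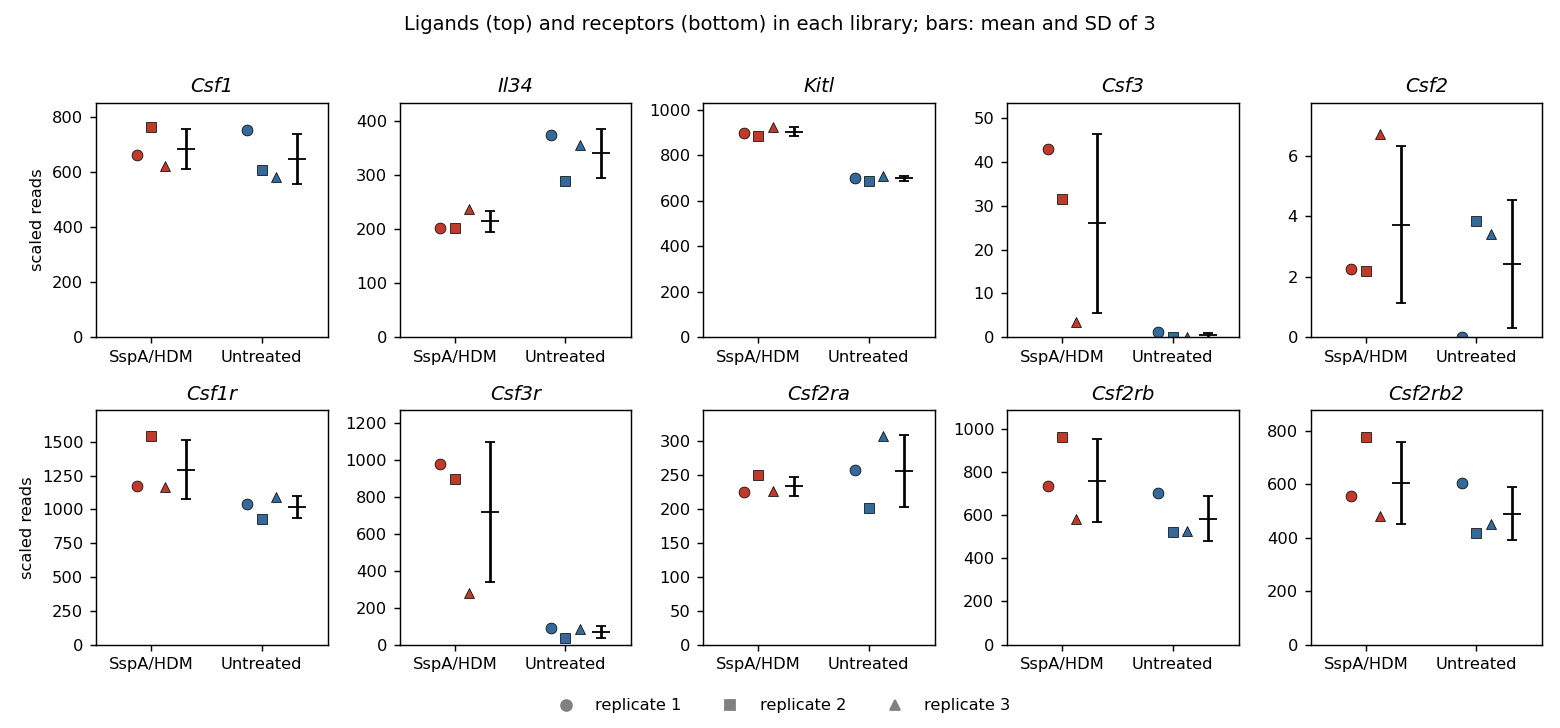
Scaled reads of each member in every library, ligands in the top row and receptors in the bottom row, with SspA/HDM libraries on the left of each panel and untreated libraries on the right, and the mean and SD of 3 libraries beside them. Csf3r was 280 to 976 in SspA/HDM libraries and 33.5 to 90.1 in untreated libraries, and Il34 was the ligand whose untreated libraries all lay above the SspA/HDM libraries.

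Promoters of 6 of the 10 members were found in RefSeq (GRCm38.p6), running from 250 bases before the gene's start to 50 after it. The pair shown here belongs to the receptor gene with the largest change and to one whose change was not called. Both lie on the sense strand of their gene, and capitals mark the letters GAGGAA, the core bound by the myeloid factor PU.1, and TTNNGNAA, a C/EBP pattern, on either strand. Csf3r is at chr4:126024409-126024708 (plus strand) and Csf2ra at chr19:61228369-61228668 (minus strand).
Csf3r: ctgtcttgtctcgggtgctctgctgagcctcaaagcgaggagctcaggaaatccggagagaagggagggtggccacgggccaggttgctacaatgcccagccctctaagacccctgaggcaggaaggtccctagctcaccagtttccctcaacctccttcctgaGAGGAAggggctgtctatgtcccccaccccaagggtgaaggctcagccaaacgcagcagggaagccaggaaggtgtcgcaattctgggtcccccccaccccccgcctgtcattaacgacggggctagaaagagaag
Csf2ra: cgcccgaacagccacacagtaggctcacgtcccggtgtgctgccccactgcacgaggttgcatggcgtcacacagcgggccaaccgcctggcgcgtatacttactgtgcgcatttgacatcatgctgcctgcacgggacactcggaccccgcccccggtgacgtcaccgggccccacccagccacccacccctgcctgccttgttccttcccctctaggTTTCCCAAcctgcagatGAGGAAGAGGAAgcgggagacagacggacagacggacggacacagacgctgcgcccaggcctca
The PU.1 core stood once in the Csf3r window, 86 bases before the start, and in 2 abutting copies in the Csf2ra window, 14 and 8 bases before it. It was found in 28.3% of 32851 promoters of the same length, and the C/EBP pattern in 40.7%. The receptor that changed and the one that was not called thus both held the PU.1 core. Csf2rb2 also held both patterns, which overlapped at 1 place, Csf2 held the C/EBP pattern alone, and Csf1 and Kitl held neither. Of the other patterns searched on both strands, TGANTCA (AP-1) was in none of the 6 windows and in 7.81% of all promoters. TTCNNNGAA (STAT) was in Csf2rb2 alone and in 8.3% of all promoters. An NF-kB pattern was in Csf1, Csf2, Csf2ra, Csf3r and Kitl and in 50.8% of all promoters.

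Csf3r (mm10 chromosome 4, 126024659 to 126044975) encodes the receptor of G-CSF, which neutrophils and their precursors carry. It had 976, 898 and 280 scaled reads in SspA/HDM replicates 1, 2 and 3, against 90.1, 33.5 and 82.9 in untreated replicates 1, 2 and 3. Every SspA/HDM library lay above every untreated one, and SspA/HDM replicate 3 was the lowest of its group. The log2 fold change was 3.29 ± 0.50 (SE), a 9.78-fold difference with a 95% interval of 4.45 to 21.5 (limma, adjusted p = 0.00534). Csf3r was called under all 17 alternative settings, with adjusted p between 1.56e-05 and 0.0354. Without SspA/HDM replicate 3 the log2 fold change was 3.87.

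Csf3 (chromosome 11, 98701313 to 98703629) encodes G-CSF, the factor that mobilises neutrophils from bone marrow. It had 38, 29 and 4 reads in SspA/HDM replicates 1, 2 and 3, against 1, 0 and 0 reads in untreated replicates 1, 2 and 3. The groups did not overlap, and the library with the fewest Csf3 reads of its group, SspA/HDM replicate 3, was also the lowest in Csf3r. The 71 reads of the SspA/HDM group against 1 of the untreated group gave a ratio of 60.9, with a 95% exact counting interval of 10.6 to 2439 that covers counting error only. The gene lay below the filter on low reads, SspA/HDM replicate 3 having few. With no filter, limma gave adjusted p = 0.0169 (15.1% of 17564 genes called) and edgeR adjusted p = 0.0249 (14.4% called). In the no-filter limma fit the call was lost without untreated replicate 2 (adjusted p = 0.0551), SspA/HDM replicate 1 (adjusted p = 0.0661) or SspA/HDM replicate 2 (adjusted p = 0.0687). The authors' deposited table gives Csf3 a log2 fold change of 5.91 and adjusted p = 7.39e-04, where 14.8% of its genes pass.

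Neutrophil markers moved with Csf3r and Csf3. Of 16 markers, 13 were tested and 11 rose, with a median log2 fold change of 3.49 against 0.03 over all tested genes. The same number rose without SspA/HDM replicate 3, and 5 rose with limma-voom. Over all genes, 1389 and 1061 were called higher in those fits, against 1439 in the main fit. Retnlg, Stfa2l1, Clec4d and Ngp had the smallest p of the list, with adjusted p between 0.0034 and 0.00484. Ly6g, the defining surface marker of mouse neutrophils, had 30.5, 9.8 and 2.52 scaled reads in SspA/HDM replicates 1, 2 and 3 and no read in any untreated library. Ly6g lay below the filter on low reads and is not among the 11. With no filter, limma gave it adjusted p = 0.0178 and edgeR adjusted p = 0.0564. The tested markers Il1r2 (0.03; limma, adjusted p = 0.942) and Padi4 (0.81; limma, adjusted p = 0.413) did not pass. The marker sum was 1232 to 4032 scaled reads in SspA/HDM libraries and 651 to 946 in untreated libraries. In bulk skin, more cells of a type and more RNA per cell cannot be told apart.

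How Csf3r compared with the neutrophil markers depended on which markers were summed. Relative to all 16, Csf3r was 24.2%, 30.7% and 22.7% of the sum in SspA/HDM replicates 1, 2 and 3, against 9.52%, 5.14% and 9.67% in untreated replicates 1, 2 and 3. Il1r2, Padi4, Cxcr2 and Mmp9 supplied 50.1% to 73.4% of that sum in SspA/HDM libraries and 93.4% to 95.1% in untreated libraries. With those 4 left out, a choice made after their values were seen, Csf3r came to 48.5%, 76.7% and 85.4% of the sum in SspA/HDM replicates 1, 2 and 3. The untreated values were then 144%, 104% and 159% in replicates 1, 2 and 3, so the order of the groups was turned round. The part of neutrophil number in the Csf3r difference was not tested.

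**Figure D2:**
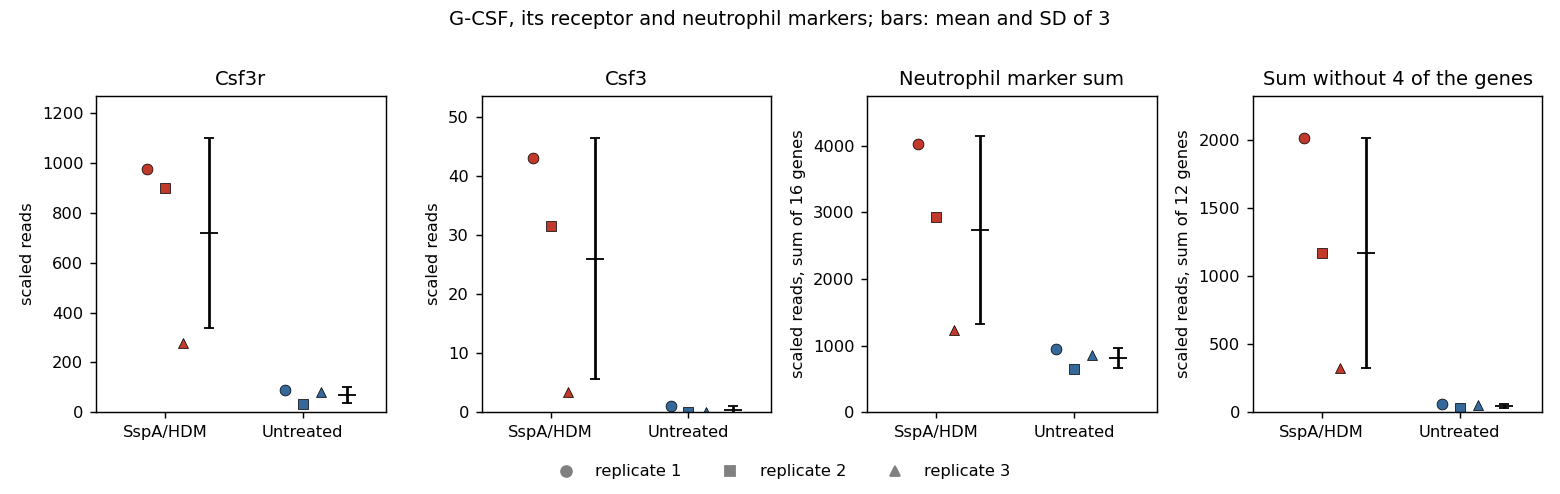
Scaled reads of Csf3r, of Csf3, of the summed 16 neutrophil markers and of the same sum without Il1r2, Padi4, Cxcr2 and Mmp9, with SspA/HDM libraries left and untreated libraries right in each panel and the mean and SD of 3 libraries beside them. SspA/HDM replicate 3 was the lowest of its group in all 4 panels, with 280 scaled reads of Csf3r and a marker sum of 1232.

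Il34 (chromosome 8, 110741829 to 110805924) fell. It had 202, 203 and 237 scaled reads in SspA/HDM replicates 1, 2 and 3, against 375, 289 and 356 in untreated replicates 1, 2 and 3. The groups did not overlap. On the log2 scale the fold change was -0.66 ± 0.13 (SE), or 0.633-fold with a 95% interval of 0.517 to 0.774 (limma, adjusted p = 0.012). Il34 was called under 16 of 17 alternatives and missed the threshold without untreated replicate 1 (adjusted p = 0.0537). The 10 epidermal keratinocyte markers summed to 14625 to 19252 scaled reads in SspA/HDM libraries and 17512 to 18272 in untreated libraries, and 1 of them, Krt15, fell. Relative to that sum Il34 was 1.05%, 1.14% and 1.62% in SspA/HDM replicates 1, 2 and 3, against 2.05%, 1.59% and 2.03% in untreated replicates 1, 2 and 3, so the groups overlapped at 1 library each.

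Csf1 (chromosome 3, 107741048 to 107760469), the other ligand of CSF1R and the growth factor of most tissue macrophages, did not pass. It had 660, 762 and 621 scaled reads in SspA/HDM replicates 1, 2 and 3, against 752, 606 and 582 in untreated replicates 1, 2 and 3. The groups overlapped in part, with untreated replicate 1 above SspA/HDM replicates 1 and 3. Its log2 fold change was 0.08 ± 0.12 (SE), with a 95% interval of -0.19 to 0.35 (limma, adjusted p = 0.695). The log2 ratio of Il34 to Csf1 was -1.67 ± 0.26 in SspA/HDM skin and -0.92 ± 0.19 in untreated skin (SD, n = 3 each). That difference of -0.74 had an exact two-sided permutation p = 0.1, the smallest that 3 samples against 3 allow, and the groups did not overlap. For each scaled read of Csf1 there were 0.307, 0.266 and 0.382 of Il34 in SspA/HDM replicates 1, 2 and 3, against 0.499, 0.478 and 0.611 in untreated replicates 1, 2 and 3.

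Csf1r (chromosome 18, 61105572 to 61131139) encodes the receptor of both ligands. It had 1175, 1543 and 1163 scaled reads in SspA/HDM replicates 1, 2 and 3, against 1039, 926 and 1088 in untreated replicates 1, 2 and 3. The groups did not overlap, with SspA/HDM replicate 2 the highest. Csf1r had a log2 fold change of 0.34 ± 0.12 (SE), a 1.26-fold difference with a 95% interval of 1.05 to 1.52, and it missed the threshold over all genes (limma, adjusted p = 0.0859). No alternative called it (adjusted p 0.0525 to 0.247). Relative to the summed 21 monocyte and macrophage markers, Csf1r was 9.95%, 10.8% and 11.4% in SspA/HDM replicates 1, 2 and 3, against 11.7%, 13.4% and 11.6% in untreated replicates 1, 2 and 3. On that scale the SspA/HDM libraries all lay below the untreated ones, by a narrow margin between the replicates numbered 3. No other marker sum was tried for Csf1r.

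Over the 6 libraries, monocyte and macrophage markers were called only higher, and Langerhans and dendritic cell markers only lower. Of the 21 monocyte and macrophage markers, all tested, 8 rose and none fell, with a median log2 fold change of 0.58. Without SspA/HDM replicate 3, 13 rose, and without SspA/HDM replicate 2, 5 rose. All genes called higher numbered 1389 and 597 in those fits, against 1439 over the 6 libraries. Trem2, a lipid receptor of macrophages, had 167, 178 and 180 scaled reads in SspA/HDM replicates 1, 2 and 3, against 36.3, 20.6 and 38.6 in untreated replicates 1, 2 and 3 (limma, adjusted p = 0.00114). Ly6c2, Ms4a7 and Chil3 rose with it. The 21 markers summed to 10205 to 14290 scaled reads in SspA/HDM libraries and 6898 to 9357 in untreated libraries.

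Of 14 Langerhans and dendritic cell markers, all tested, none rose and 4 fell, namely Cd207, Mgl2, Cd209a and H2-Ab1. The median was -0.25, and 3 fell without SspA/HDM replicate 3. The count was 2 without any 1 of untreated replicates 1 and 3 and SspA/HDM replicates 1 and 2, while Cd207 and Mgl2 were called under all 17 alternatives. Cd207 encodes langerin, the defining lectin of Langerhans cells, which depend on IL-34. It had 88.2, 79.5 and 129 scaled reads in SspA/HDM replicates 1, 2 and 3, against 221, 264 and 289 in untreated replicates 1, 2 and 3. The log2 fold change of Cd207 was -1.39 ± 0.20 (SE; limma, adjusted p = 0.00439). The sum of the list was 2502 to 2833 scaled reads in SspA/HDM libraries and 3181 to 3871 in untreated libraries. Whether the fall of Il34 bore on these markers was not tested.

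**Figure D3:**
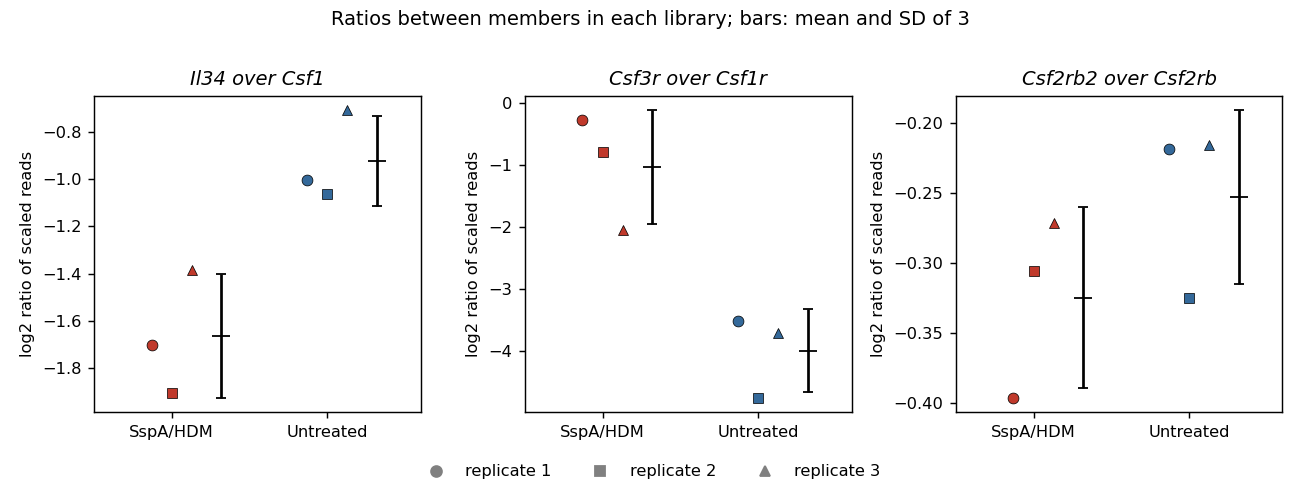
The log2 ratio of scaled reads for Il34 over Csf1, Csf3r over Csf1r and Csf2rb2 over Csf2rb in each library, SspA/HDM left and untreated right, with the mean and SD of 3 libraries. The first ratio was lower and the second higher in every SspA/HDM library than in any untreated one, and the groups overlapped in the third.

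The balance between the neutrophil and the macrophage receptor was also set in each library. The log2 ratio of Csf3r to Csf1r was -1.03 ± 0.92 in SspA/HDM skin and -3.99 ± 0.67 in untreated skin (SD, n = 3 each). The groups did not overlap, and the difference of 2.96 had an exact two-sided permutation p = 0.1, again the smallest possible. There were 0.831, 0.582 and 0.241 scaled reads of Csf3r for each of Csf1r in SspA/HDM replicates 1, 2 and 3, against 0.0867, 0.0361 and 0.0762 in untreated replicates 1, 2 and 3.

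Kitl (chromosome 10, 100015821 to 100100415), the ligand of KIT, rose by a small and even step. It had 900, 884 and 925 scaled reads in SspA/HDM replicates 1, 2 and 3, against 700, 688 and 709 in untreated replicates 1, 2 and 3. The spread within each group was small beside the gap between them. Kitl had a log2 fold change of 0.37 ± 0.07 (SE), a 1.29-fold difference with a 95% interval of 1.16 to 1.43 (limma, adjusted p = 0.00934). Kitl was called under all 17 alternatives (adjusted p 0.00894 to 0.0384). Relative to the keratinocyte marker sum, Kitl was 4.67%, 4.96% and 6.33% in SspA/HDM replicates 1, 2 and 3, against 3.83%, 3.79% and 4.05% in untreated replicates 1, 2 and 3, with no overlap. Kitl was set against no other marker sum, so whether this holds for other cell types is not shown.

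Its receptor gene Kit, which is not among the 10, had 315, 414 and 460 scaled reads in SspA/HDM replicates 1, 2 and 3, against 225, 199 and 319 in untreated replicates 1, 2 and 3. SspA/HDM replicate 1 lay just below untreated replicate 3, so the groups overlapped. Kit rose over the 6 libraries (0.69 ± 0.19 SE; limma, adjusted p = 0.0424) and was called under 9 of 17 alternatives. Adjusted p for Kit was 0.126 without untreated replicate 1, 0.129 without untreated replicate 2, 0.126 without SspA/HDM replicate 2, 0.0922 without SspA/HDM replicate 3 and 0.164 in the 4 libraries of like depth. It was 0.0523 with edgeR, 0.0512 with edgeR and no filter, and 0.0564 with limma-voom.

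Melanocytes and mast cells carry KIT in skin, and their marker lists differed in how many members rose. Of 10 melanocyte markers, 8 were tested and 7 rose, with a median log2 fold change of 2.27 and the same count without SspA/HDM replicate 3. Dct, an enzyme of melanin synthesis, had 594, 558 and 691 scaled reads in SspA/HDM replicates 1, 2 and 3, against 220, 250 and 253 in untreated replicates 1, 2 and 3 (limma, adjusted p = 8.22e-04). Sox10, also on this list, did not pass (-0.12, adjusted p = 0.617). The melanocyte sum was 1762 to 2333 scaled reads in SspA/HDM libraries and 636 to 736 in untreated libraries. Relative to it, Kit was 16.6%, 23.5% and 19.7% in SspA/HDM replicates 1, 2 and 3, against 35.4%, 28.7% and 43.4% in untreated replicates 1, 2 and 3.

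Of 12 mast cell and basophil markers, 11 were tested and 4 rose, with a median of 0.35, and 3 rose and 1 fell without SspA/HDM replicate 3. The count higher was 2 without untreated replicate 1, untreated replicate 2 or SspA/HDM replicate 1, and 1 without SspA/HDM replicate 2. Over all genes, 675, 751, 856 and 597 were called higher in those fits, against 1439 over the 6 libraries. The genes called over the 6 libraries were Hdc, Fcer1a, Mcpt8 and Tpsb2. Hdc, the enzyme that makes histamine, had 708, 405 and 213 scaled reads in SspA/HDM replicates 1, 2 and 3, against 92.3, 64.3 and 88.6 in untreated replicates 1, 2 and 3, the same falling order of treated libraries as in Csf3r. Hdc and Fcer1a are also expressed by basophils, Mcpt8 is a basophil protease, and Tpsb2, a mast cell tryptase, was called in 5 of 17 alternatives. The mast cell proteases Cpa3 (0.27, adjusted p = 0.318), Cma1 (0.28, adjusted p = 0.102) and Mcpt4 (0.08, adjusted p = 0.636) did not pass. Cma1 was higher in every SspA/HDM library than in any untreated one, as were 21.7% of all tested genes. Mrgprb1 (0.35, adjusted p = 0.511), Ms4a2 (0.35, adjusted p = 0.638) and Cd200r3 (0.61, adjusted p = 0.4) did not pass either. Mrgprb2, a receptor of mouse mast cells, had 52.0, 85.0 and 118 scaled reads in SspA/HDM replicates 1, 2 and 3, against 140, 139 and 202 in untreated replicates 1, 2 and 3. Its groups did not overlap, and 15.6% of all tested genes were likewise lower without overlap. Mrgprb2 missed the threshold (-0.96 ± 0.29 SE; limma, adjusted p = 0.0521) but was called lower in 5 of 17 alternatives. The mast cell and basophil sum was 2558 to 2717 scaled reads in SspA/HDM libraries and 1552 to 2392 in untreated libraries. Relative to that sum, Kit was 11.84%, 15.23% and 17.97% in SspA/HDM replicates 1, 2 and 3. The untreated values were 11.93%, 12.85% and 13.35% in replicates 1, 2 and 3, and the groups overlapped. Hair follicle sheath markers also differed, with 7 of 7 tested members higher (3 with limma-voom) and sums of 784 to 4400 scaled reads in SspA/HDM libraries and 135 to 196 in untreated libraries. The part of these cells in the rise of Kitl and Kit was not tested.

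Csf2 (chromosome 11, 54247270 to 54249899), the gene of GM-CSF, was close to the detection limit. It had 2, 2 and 8 reads in SspA/HDM replicates 1, 2 and 3, against 0, 3 and 3 reads in untreated replicates 1, 2 and 3. The 12 reads of the SspA/HDM group against 6 of the untreated group gave a ratio of 1.72, with a 95% exact counting interval of 0.596 to 5.57. A difference was not detectable at this depth, and the interval leaves room for either direction.

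The receptor chains of GM-CSF did not pass. Csf2ra (chromosome 19, 61224402 to 61228418), the chain that gives the receptor its specificity, had 225, 249 and 226 scaled reads in SspA/HDM replicates 1, 2 and 3, against 257, 202 and 308 in untreated replicates 1, 2 and 3. All 3 SspA/HDM values lay inside the untreated range. Its log2 fold change was -0.11 ± 0.15 (SE), with a 95% interval of -0.46 to 0.24 (limma, adjusted p = 0.676).

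Csf2rb (chromosome 15, 78325800 to 78351001) encodes the beta chain shared by the receptors of GM-CSF, IL-3 and IL-5. It had 733, 962 and 581 scaled reads in SspA/HDM replicates 1, 2 and 3, against 702, 522 and 524 in untreated replicates 1, 2 and 3. The groups overlapped, with SspA/HDM replicate 3 below untreated replicate 1. Csf2rb had a log2 fold change of 0.36 ± 0.18 (SE), with a 95% interval of -0.05 to 0.78 (limma, adjusted p = 0.21). It was called in 1 of 17 alternatives, without SspA/HDM replicate 3 (0.54, adjusted p = 0.0463).

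Csf2rb2 (chromosome 15, 78282508 to 78305721) encodes a mouse beta chain specific to IL-3. It had 556, 778 and 481 scaled reads in SspA/HDM replicates 1, 2 and 3, against 603, 417 and 451 in untreated replicates 1, 2 and 3. As for Csf2rb, replicate 2 was the highest SspA/HDM library and replicate 1 the highest untreated one, and the groups overlapped. Csf2rb2 had a log2 fold change of 0.29 ± 0.19 (SE), with a 95% interval of -0.13 to 0.72 (limma, adjusted p = 0.329).

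The beta chain genes lie 20078 bases apart in opposite orientation, and their transcripts are so alike that short reads can be shared between them. Over 2628 aligned coding positions of their longest coding transcripts (GENCODE M21), 95.2% were identical, and the longest identical run was 242 bases. Of all windows of 50 bases in the Csf2rb2 transcript, 19% stood unchanged in the Csf2rb transcript, and of windows of 100 bases 7.2% did. The first gap-free stretch inside 1 exon of each gene is shown to let the likeness be seen, coding bases 91 to 180 of both, with the 4 differences in capitals. It lies at chr15:78297011-78297100 (minus strand, GRCm38) in Csf2rb2 and at chr15:78336350-78336439 (plus strand) in Csf2rb.
Csf2rb2: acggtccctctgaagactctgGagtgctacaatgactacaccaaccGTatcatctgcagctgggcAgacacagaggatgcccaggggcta
Csf2rb: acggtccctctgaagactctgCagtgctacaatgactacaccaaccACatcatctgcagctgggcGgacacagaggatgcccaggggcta
How the authors' counting treated reads that fit both genes is not given in the sources used here, so the counts of both are uncertain. The log2 ratio of Csf2rb2 to Csf2rb was -0.32 ± 0.06 in SspA/HDM skin and -0.25 ± 0.06 in untreated skin (SD, n = 3 each), a difference of -0.07 (exact two-sided permutation p = 0.3).

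**Figure D4:**
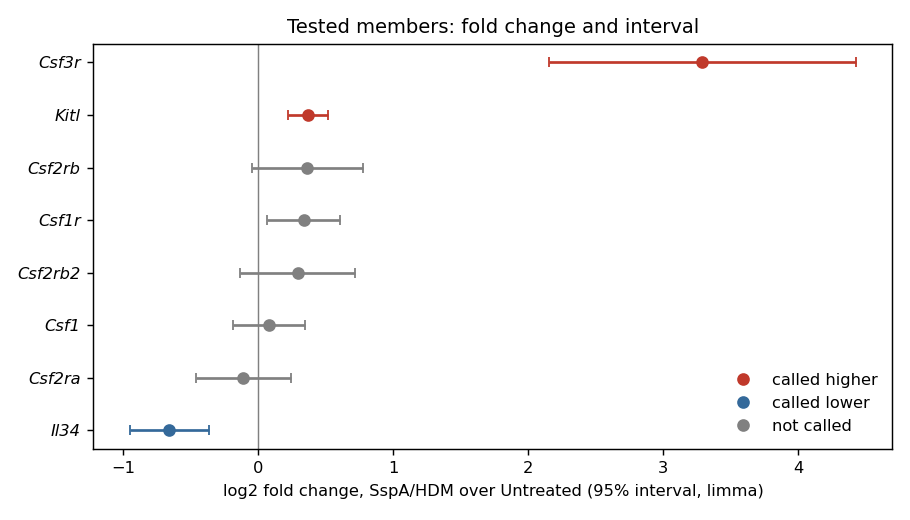
The log2 fold change of the 8 tested members, SspA/HDM over untreated, with the 95% interval of the limma fit over all genes; colours mark the members called higher, called lower or not called. The interval of Csf3r runs from 2.15 to 4.43, and those of Csf1, Csf2ra, Csf2rb and Csf2rb2 include 0.

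Per kilobase of transcript, Csf1r stood highest of the 10 members in both groups, at 336 ± 56.1 scaled reads per kilobase in SspA/HDM skin and 264 ± 21.6 in untreated skin (SD, n = 3 each). In untreated skin the next levels, Il34 (184 ± 24.2), Csf1 (155 ± 22.1), Csf2ra (139 ± 28.9), Kitl (128 ± 1.91), Csf2rb (121 ± 21.4) and Csf2rb2 (104 ± 21), each overlapped their neighbour in the order. Csf3r (17.7 ± 7.93) lay apart below them, with Csf2 (2.36 ± 2.06) and Csf3 (0.27 ± 0.468) last. In SspA/HDM skin Csf3r was second (185 ± 98.1) and Il34 eighth (116 ± 10.8), and every neighbour from Csf3r to Il34 overlapped the next. Csf3 (19.2 ± 15) and Csf2 (3.62 ± 2.53) were again the lowest.

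Among the other ligands and receptors of these families, 8 of 9 listed genes had a row and 6 were tested, of which 3 rose and none fell, with a median log2 fold change of 0.22. Ptprz1, a phosphatase reported as a further receptor of IL-34, had 818, 555 and 371 scaled reads in SspA/HDM replicates 1, 2 and 3, against 152, 116 and 186 in untreated replicates 1, 2 and 3. The groups did not overlap (1.89 ± 0.27 SE; limma, adjusted p = 0.00456). Il3ra, the alpha chain of the IL-3 receptor, had 176, 182 and 170 scaled reads in SspA/HDM replicates 1, 2 and 3, against 116, 127 and 120 in untreated replicates 1, 2 and 3 (0.53, adjusted p = 0.0226, 12 of 17 alternatives called). Kit was the third. Flt3 (-0.20, adjusted p = 0.625), its ligand Flt3l (-0.43, adjusted p = 0.0667) and Sdc1 (-0.10, adjusted p = 0.587) did not pass. Il5 had 8 reads in each group and Il5ra 38 reads in SspA/HDM and 12 in untreated libraries, both below the filter, and Il3 is not analysed here. Without SspA/HDM replicate 3, 2 of the list rose, and without untreated replicate 1 or SspA/HDM replicate 2, 1 did. All genes called higher numbered 1389, 675 and 597 in those fits, against 1439 over the 6 libraries.

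Of 21 signal transducers downstream of these receptors, all tested, 5 rose and none fell, with a median of 0.21. Among those that rose were the kinases Syk, Fes and Lyn and the phosphatase Inpp5d, all abundant in blood cells. Syk had 821, 917 and 656 scaled reads in SspA/HDM replicates 1, 2 and 3, against 407, 320 and 466 in untreated replicates 1, 2 and 3 (1.01 ± 0.16 SE; limma, adjusted p = 0.0058). Jak2, the kinase of the GM-CSF and G-CSF receptors, had a log2 fold change of 0.12 (adjusted p = 0.424), Stat3 of 0.08 (adjusted p = 0.612) and Stat5a of -0.25 (adjusted p = 0.0928). Lyn and Fes each missed the threshold in 2 of 17 alternatives and Inpp5d in 4. The count higher was 7 without SspA/HDM replicate 3, 3 without untreated replicate 1 or SspA/HDM replicate 1, and 2 without SspA/HDM replicate 2. Over all genes these counts were 1389, 675, 856 and 597, against 1439 over the 6 libraries.

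Of 11 feedback and target genes of cytokine receptors, all tested, Osm alone rose, and the median was -0.02. Osm, a cytokine gene induced by STAT5, had 183, 57.7 and 27.7 scaled reads in SspA/HDM replicates 1, 2 and 3, against 6.59, 2.57 and 9.09 in untreated replicates 1, 2 and 3 (3.38 ± 0.65 SE; limma, adjusted p = 0.0117). The feedback inhibitors Socs3 (-0.02, adjusted p = 0.949) and Cish (-0.47, adjusted p = 0.109) did not pass, nor did Pim3 (-0.29, adjusted p = 0.0751) and Bcl3 (0.53, adjusted p = 0.105). Of 16 myeloid transcription factors, 15 were tested, of which 1 rose and none fell (limma, adjusted p under 0.05), with a median of -0.08. Spi1, the gene of PU.1, did not pass (0.62, adjusted p = 0.0582), nor did Cebpa (-0.26, adjusted p = 0.0714) or Runx3 (0.50, adjusted p = 0.0826). Without SspA/HDM replicate 3, Osm and 1 falling gene were called among the feedback genes, and 2 transcription factors rose. With limma-voom no feedback gene was called.

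Cytokines known to induce G-CSF or GM-CSF were examined as a further list. Of 13 genes, 11 had a row and 8 were tested, of which Il17f, Il1b, Tnf and Il6 rose and none fell, with a median of 0.96. Il1b had 755, 353 and 160 scaled reads in SspA/HDM replicates 1, 2 and 3, against 53.8, 56.6 and 59.1 in untreated replicates 1, 2 and 3 (2.61 ± 0.45 SE; limma, adjusted p = 0.00789). Il17f had 54.3, 22.9 and 21 scaled reads in SspA/HDM replicates 1, 2 and 3 and no read in untreated libraries. In both genes SspA/HDM replicate 1 was the highest library, as it was in Csf3 and Csf3r. Tnf, Il6 and Il33 were also highest there, while Il1a and Il18 were highest in SspA/HDM replicate 3 and Tslp in SspA/HDM replicate 2. Whether these cytokines bore on Csf3 or Csf3r was not tested. Without SspA/HDM replicate 3, 5 of the list rose, without untreated replicate 1, 2 did, and with limma-voom, 1 did. Over all genes, 1389, 675 and 1061 were called higher in those fits, against 1439 in the main fit.

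Further marker lists bear on the sources of these ligands. Of 12 T and innate lymphoid cell markers, all tested, 6 rose, among them Icos, Cd28, Cd4 and Cd8a, and Gata3 fell, with a median of 0.75. Without SspA/HDM replicate 2, 3 rose, and Gata3 was lost when untreated replicate 1 or 2 or SspA/HDM replicate 1 or 2 was left out. Over all genes, 597 were called higher without SspA/HDM replicate 2, against 1439 over the 6 libraries. All genes called lower numbered 518 to 644 in the fits that lost Gata3, against 1123. The T cell receptor chains Cd3e (-0.49, adjusted p = 0.103) and Cd3g (-0.22, adjusted p = 0.404) and the surface marker Thy1 (-0.28, adjusted p = 0.0642) did not pass. Each of these genes was lower in every SspA/HDM library than in any untreated one, as were 15.6% of all tested genes. The chain Cd3d went the other way and did not pass either (0.92, adjusted p = 0.0747). It was higher in every SspA/HDM library than in any untreated one, as were 21.7% of all tested genes. The 12 markers summed to 2590 to 2801 scaled reads in SspA/HDM libraries and 2639 to 2659 in untreated libraries. T cells are a source of GM-CSF, whose gene had 12 and 6 reads in the groups named above. Of 12 fibroblast and endothelial markers, all tested, Vwf and Tie1 rose and none fell, with a median of 0.23. Relative to the sum of that list Csf1 was 3.29%, 3.22% and 3.29% in SspA/HDM replicates 1, 2 and 3, against 4.32%, 3.71% and 3.08% in untreated replicates 1, 2 and 3, and the groups overlapped. Of 8 skeletal muscle markers 3 fell (median -0.36), a count of 0 without untreated replicate 2 or SspA/HDM replicate 1, 1 without untreated replicate 1 or SspA/HDM replicate 2, and 7 with DESeq2. Over all genes the counts lower were 644, 623, 543 and 518 without those libraries and 1336 with DESeq2. Of 6 adipocyte markers 4 fell (median -0.52), and 2 without SspA/HDM replicate 1.

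**Figure D5:**
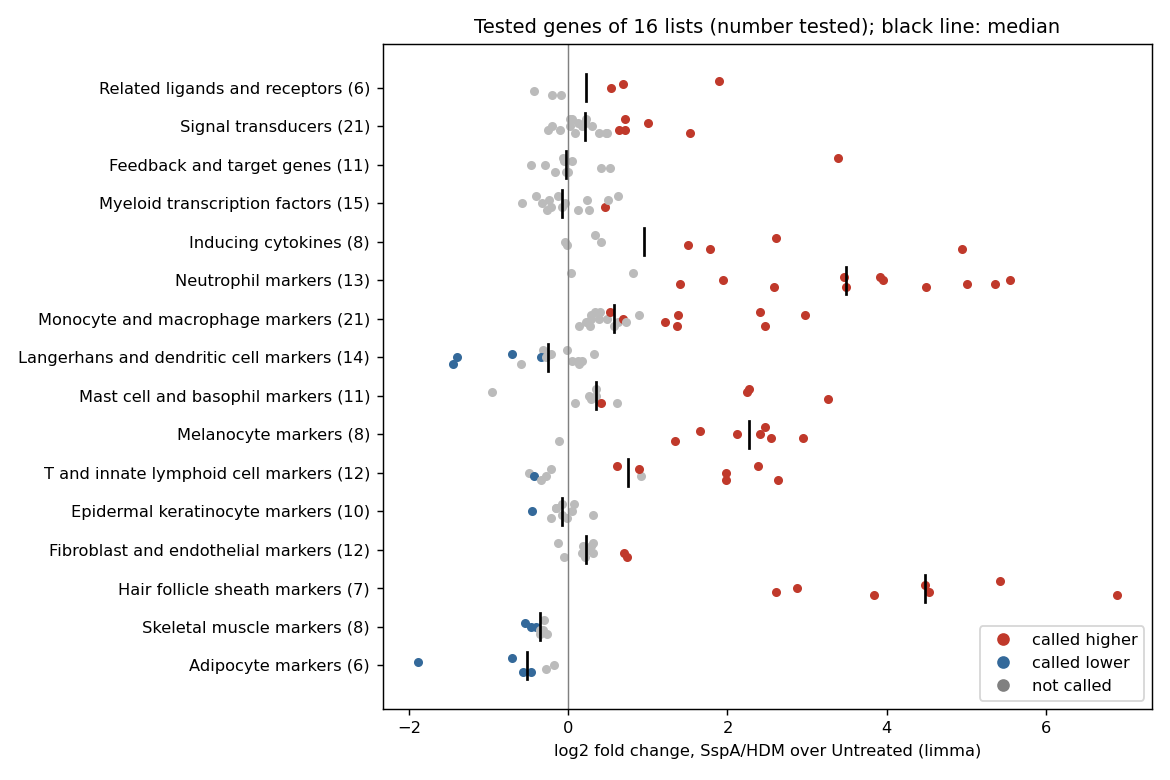
The log2 fold change of each tested gene in the 16 lists, SspA/HDM over untreated, with the number tested after each list's name; the black line is the list's median and colours mark called genes. The medians of the neutrophil (3.49), hair follicle sheath (4.48) and melanocyte (2.27) lists stand far to the right, and that of the Langerhans and dendritic cell list lies at -0.25.

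The genes whose pattern over the 6 libraries was most like that of a member were listed by Pearson correlation of log2 values, as a description with no test, among 14076 genes whose mean reached 5 CPM (reads scaled to library total). Cd80, Tlr2 and Plek were nearest to Csf3r (r = 0.998, 0.997 and 0.997), and 417 genes exceeded r = 0.95. Cdh4, Aldh3a1 and Lrrc4c were nearest to Il34 (r = 0.998, 0.998 and 0.996), with 134 genes over that level. Ncbp3, Rptn and Lrrc4 were nearest to Kitl (r = 0.996 each), with 343 genes over it. C6 and Thap11 were among the 3 nearest to Csf1r (r = 0.995 and 0.992), with 90 genes over it. For Csf1 only Hax1, Sema7a and Dnm2 exceeded it (r = 0.978, 0.959 and 0.957). All these values share libraries and the group difference.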

How the data were processed

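Stranded mRNA libraries of whole skin were sequenced from 6 samples, as the labels' protocols say. The submitters' processing notes name bcl2fastq 2.20.0.422, the aligner STAR, DESeq2 and build mm10. They name no read counter, so its handling of shared reads is unknown here. The deposited table holds a scaled signal per gene and library, transcript lengths, and the authors' deposited log2 fold changes and p-values.

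Dividing each library's values by the smallest step between them gave whole reads for 100% of values (tolerance 0.1). Genes passing filterByExpr on those reads (minimum count 10, minimum total 15) entered limma 3.58.1 (R 4.3.3) on log2(value + 1), with a trend in the spread and Benjamini-Hochberg adjustment over all 15534 genes. The pseudocount shrinks fold changes of low genes. Alternatives were edgeR 4.0.16, DESeq2 1.42.0 and limma-voom fitted to the reads, other pseudocounts, filters and scaling, the replicate number as a block, the 4 libraries of like depth and leaving out each library. The voom and unfiltered edgeR fits, and leaving out libraries in the unfiltered fit, were chosen after seeing the data. On simulated data the fit recovered 96% of 3-fold changes and 46% of 1.5-fold changes, and it called 12 of 15334 unchanged genes. The 200 changed genes all had at least 200 reads over the 6 libraries, so recovery in genes with fewer reads was not measured. They were 200 of 15534 genes, while 16.5% of genes were called in the real data. Smaller changes were not simulated.

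The members and the 16 lists were chosen with earlier results of these data known. Genes named are the 10 members, all related ligands and receptors, up to 4 genes per list with the smallest p, and those of like pattern; others, such as Cpa3, Cma1, Mcpt4, Mrgprb2, Cd3e, Cd3g, Thy1, Sox10, Jak2, Stat3, Stat5a, Socs3, Ly6g, the keratins and the rest of short called lists, were chosen after their values were seen. A few genes that the rule names are not reported here. Replicates of a group differed by more than counting noise. Counting intervals cover counting error only, and the highest member reached 0.368 reads per base. Figures were drawn with matplotlib 3.10.9.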

Additional observations from a re-analysis of the deposited data

How the results depend on the processing

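Csf3r and Kitl kept their direction and call under all 17 alternatives, and Il34 under 16. Members called higher numbered 2 under the other settings and 3 without SspA/HDM replicate 3, where Csf2rb joined them, and 3 with no filter (limma and edgeR) and in the authors' deposited table, where Csf3 joined them. The range over leaving out single libraries was 2 to 3 higher and 0 to 1 lower, with 0 lower without untreated replicate 1. Over all genes, leaving out single libraries gave 597 to 1389 called higher and 518 to 1333 lower, against 1439 and 1123 over the 6 libraries, the lowest counts being without SspA/HDM replicate 2. The cause was not tested. Members that were not called changed sign in 2 cases, Csf1 without SspA/HDM replicate 2 (-0.00428, highest 0.19 without untreated replicate 1) and Csf2ra without untreated replicate 3 (0.033, lowest -0.27 without untreated replicate 2). Sdc1 changed sign without SspA/HDM replicate 3 (0.021, lowest -0.18 without SspA/HDM replicate 1) and in the 4 libraries of like depth (0.063). Hax1 changed sign with edgeR (-0.00293, or -0.00443 with no filter), DESeq2 (-0.00853) and limma-voom (-0.00881), and without untreated replicate 3 (-0.0103) or SspA/HDM replicate 2 (-0.00836), its highest being 0.087 without untreated replicate 1. Csf2, in the unfiltered fit, changed sign without untreated replicate 1 (-0.10). The ratio differences, recomputed under 10 settings (other pseudocounts, each library left out, the libraries of like depth and the block), kept their direction, from -0.95 to -0.62 for Il34 to Csf1, 2.57 to 3.46 for Csf3r to Csf1r and -0.13 to -0.04 for Csf2rb2 to Csf2rb. TMM scaling moved the median of all genes to -0.000766, against 0.03 as deposited. Deviations of same-numbered libraries from their group means correlated at -0.085, -0.0545 and 0.0538. With so few libraries these values cannot exclude that replicate numbers were a pairing. With the replicate number as a block, 2 members were called higher and 1 lower. Depth limits Csf2 and Csf3 most.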
